A study of Homo sapiens with 8 samples.

Results

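The NDRG (N-myc downstream regulated gene) family comprises NDRG1, NDRG2, NDRG3 and NDRG4, and its members were taken as the rows of the gene body and TSS count tables that carry these 4 symbols, out of 23193 genes counted in each table. All 4 genes were present in both tables. Nascent transcription was measured by PRO-seq (precision run-on sequencing), which labels the RNA that engaged polymerases extend in isolated nuclei, so that reads count polymerases at work rather than accumulated mRNA. The cells were HCT116, an established human colorectal carcinoma line, either wild type (WT) or HIF1A-/-, a derivative in which the gene for the alpha subunit of hypoxia-inducible factor 1 was disrupted by homologous recombination. Each line was kept in normoxia or exposed to hypoxia (1% O2) for 90 min, with DMSO as vehicle in every culture, and each of the 4 groups had 2 independent replicates (8 libraries). The HIF1A-/- cells are a single derived line, so the difference of genotype and any other difference between the lines cannot be told apart.

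NDRG proteins share an alpha/beta-hydrolase fold without known enzymatic activity. The family was named for the repression of its founding gene by N-MYC. NDRG1 is a stress-responsive gene that is induced by low oxygen, is widely used as a marker of hypoxia, and encodes a protein phosphorylated by the kinases SGK1 and GSK3. NDRG2 is best known from brain and as a candidate tumor suppressor, NDRG3 encodes a protein that is degraded after hydroxylation by EGLN1 (PHD2) and is stabilized by lactate in hypoxia, and NDRG4 is a gene of heart and brain whose promoter methylation serves as a marker of colorectal cancer.

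One start site per gene was used for counting, and the 250 bases upstream of it are shown for NDRG2, NDRG3 and NDRG4 because these are the 3 members that edgeR called in no comparison. The windows are in GRCh37, the build of the count tables, each read 5′ to 3′ on the strand of its gene, and lie at chr14:21539032-21539281 (minus strand), chr20:35374542-35374791 (minus strand) and chr16:58533796-58534045 (plus strand). Capitals mark the core of the hypoxia response element, searched as ACGTG or GCGTG on both strands, so that CACGT and CACGC are the same motifs read on the other strand.
NDRG2: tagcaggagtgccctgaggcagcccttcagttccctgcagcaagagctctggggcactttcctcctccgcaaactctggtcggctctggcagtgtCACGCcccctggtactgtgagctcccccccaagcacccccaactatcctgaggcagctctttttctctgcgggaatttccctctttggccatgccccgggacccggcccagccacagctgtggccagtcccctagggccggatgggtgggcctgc
NDRG3: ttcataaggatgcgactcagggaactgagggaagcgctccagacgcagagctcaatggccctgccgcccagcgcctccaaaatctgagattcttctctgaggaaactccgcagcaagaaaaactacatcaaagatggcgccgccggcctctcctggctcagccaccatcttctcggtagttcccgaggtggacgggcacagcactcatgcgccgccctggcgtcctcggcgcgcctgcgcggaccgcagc
NDRG4: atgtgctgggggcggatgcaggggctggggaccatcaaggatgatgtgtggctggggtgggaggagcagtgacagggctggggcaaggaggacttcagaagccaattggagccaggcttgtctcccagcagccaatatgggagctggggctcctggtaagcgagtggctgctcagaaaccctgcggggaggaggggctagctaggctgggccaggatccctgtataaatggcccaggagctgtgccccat

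The NDRG2 window held 1 match, from 155 to 151 bases before the start, and the NDRG3 and NDRG4 windows held none. The equivalent NDRG1 window also held 1 match, from 37 to 33 bases before the start. Of all 23193 windows, 47.0% held at least 1 match, as did 53.4% of the 15212 windows of genes with a tested TSS region. A match describes the letters only. The NDRG2 start was nearly silent, with 1 to 5 reads per library, and 24 of 40 annotated NDRG4 start sites lie upstream of the counted one. The NDRG2 window also lies within ARHGEF40, a gene that overlaps NDRG2 on the opposite strand. The windows therefore describe the counted starts and not every promoter of these genes. The E-box CACGTG, which is bound by MYC and overlaps ACGTG, was found in none of the 4 windows and in 6.64% of all windows. CpG dinucleotides numbered 28 in the NDRG1 window, 21 in NDRG3, 7 in NDRG2 and 3 in NDRG4, against a median of 13 over all windows.

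Depth ran from 18125234 to 23622392 gene body reads and from 2783581 to 5966348 TSS reads per library. Read densities are given as RPKM, reads per kilobase of the counted region per 1000000 reads of the same table, or as CPM where one gene is followed across libraries. Colorectal epithelial markers were well covered in all 8 libraries (EPCAM 2.98 to 5.27 RPKM, KRT19 70.1 to 124 RPKM, CDX2 2.08 to 3.03 RPKM), as were KRT8, KRT18 and CDH1, with the exception of VIL1 (0 to 15 reads). Of 11 markers of fibroblasts, immune, endothelial, neural and glial cells, 8 had at most 133 reads in any library, among them PTPRC (1 to 10) and PECAM1 (0 to 4), while CD68 had 139 to 269, SYP 300 to 478 and COL1A1 417 to 1188. Their part in the results was not tested. HIF1A, the targeted gene, had 142 ± 11.2 CPM in its gene body in normoxic WT cells and 149 ± 11.4 CPM in normoxic HIF1A-/- cells (SD, n = 2), a log2 difference of 0.07 (SE 0.156, edgeR adjusted p = 0.991). The counted region reaches beyond the disrupted part of the gene, so its reads do not check the genotype. Intervals and spreads here cover 2 libraries per group. The edgeR p-values set each difference against the spread of replicate libraries, estimated in 1 fit over all 4 groups.

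NDRG1 was the member that rose in hypoxia. Its gene body held 1129 and 1445 reads in the 2 normoxic WT libraries and 6489 and 18865 reads in the 2 hypoxic ones, equal to 0.922 and 1.35 RPKM against 5.78 and 13.5 RPKM. Both hypoxic libraries lay above both normoxic ones, as was the case for 19.8% of the 16686 gene bodies tested. In HIF1A-/- cells the gene held 1028 and 1900 reads in normoxia and 1367 and 2354 in hypoxia, or 0.790 and 1.52 RPKM against 1.14 and 1.96 RPKM, and these ranges overlap. In every group replicate 2 was higher than replicate 1, by 1.46-fold in normoxic WT cells, 2.34-fold in hypoxic WT cells, 1.92-fold in normoxic HIF1A-/- cells and 1.73-fold in hypoxic HIF1A-/- cells. Within each replicate number, hypoxia raised the WT value 6.26-fold and 10.0-fold, and the HIF1A-/- value 1.44-fold and 1.29-fold.

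**Figure D1:**
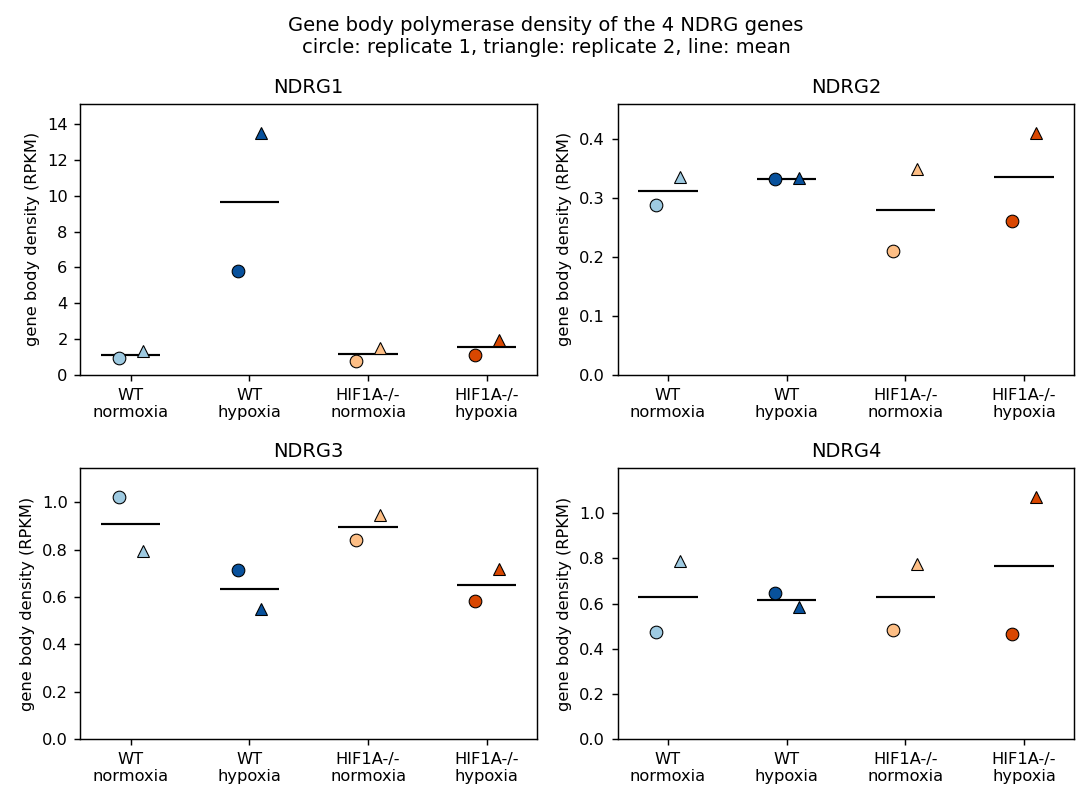
Gene body density (RPKM, linear axes that start at 0 and differ in range between panels) of each NDRG gene in the 8 libraries by group, with circles for replicate 1, triangles for replicate 2 and a line at the mean. NDRG1 rises from 0.922 and 1.35 to 5.78 and 13.5 RPKM in WT cells, NDRG3 is lower in hypoxia in both lines, and the hypoxic and normoxic libraries of NDRG2 and NDRG4 overlap.

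The WT increase of NDRG1 was 8.30-fold (log2 fold change 3.05, SE 0.466), and passed the 10% FDR used for all calls (edgeR adjusted p = 0.0608). NDRG1 was the only member called of the 4, among 0.431% of gene bodies called (72 genes, all of them higher), and its fold change ranked 13 of 16686. With the replicate number as a term (replicate block), which pairs the libraries of equal number, the log2 fold change was 2.96 (SE 0.155, adjusted p = 9.59e-05), and 5.51% of gene bodies were called. The call was lost without WT normoxia replicate 1 (log2 fold change 2.82, adjusted p = 0.83), without WT normoxia replicate 2 (3.33, adjusted p = 0.536) and without WT hypoxia replicate 2 (2.34, adjusted p = 0.348), each of which leaves 1 library in a group that is assumed to vary like the others. Over all genes, 0, 0 and 14 gene bodies were called in these 3 fits.

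Without HIF1A the log2 fold change of NDRG1 was 0.39 (SE 0.435, adjusted p = 1), and no member was called, nor was any gene body (0.0% called). At an unadjusted p under 0.05 there were 347 gene bodies, and DESeq2 called 8, none of them a member. The response of NDRG1 in WT cells exceeded that in HIF1A-/- cells by 2.66 on the log2 scale (SE 0.623). This difference was not called without a block (unadjusted p = 0.00276, adjusted p = 0.768; 0.0539% of gene bodies called, no member among them), and was called with the replicate block (2.56, SE 0.21, adjusted p = 0.00287; 0.384% called) and by DESeq2 (2.68, adjusted p = 0.00176).

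**Figure D2:**
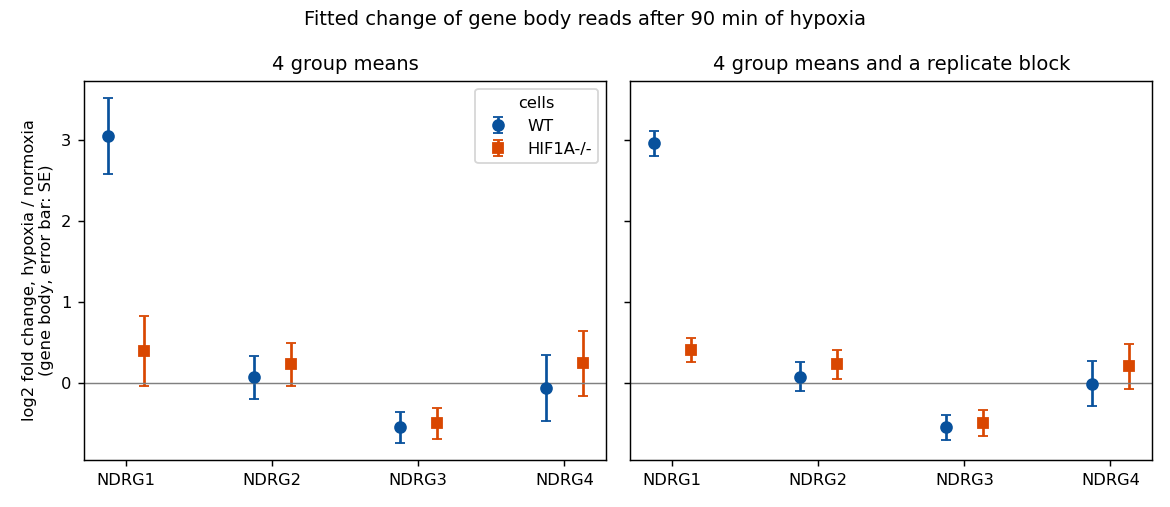
Fitted log2 fold change of gene body reads, hypoxia over normoxia, for the 4 NDRG genes in WT (blue circles) and HIF1A-/- cells (orange squares), with bars of 1 SE from edgeR, without (left) and with (right) the replicate block. NDRG1 in WT cells stands at 3.05 and 2.96 in the 2 fits, NDRG3 lies below 0 in both lines, and the bars for NDRG1 narrow from 0.466 to 0.155 with the block.

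Between the lines, NDRG1 differed in hypoxia and not detectably in normoxia. In normoxia its gene body density was 1.14 ± 0.301 RPKM in WT and 1.16 ± 0.516 RPKM in HIF1A-/- cells (SD, n = 2), a log2 difference of 0.01 (SE 0.436, adjusted p = 0.996), and no member was called among 1.78% of gene bodies called. In hypoxia the densities were 9.64 ± 5.46 and 1.55 ± 0.585 RPKM. NDRG1 was then 6.29-fold lower in HIF1A-/- cells (log2 fold change -2.65, SE 0.458, adjusted p = 0.0278) and was the only member called, among 4.26% of gene bodies. This call was lost without WT hypoxia replicate 2 (-1.94, adjusted p = 0.152) and without HIF1A-/- hypoxia replicate 1 (-2.34, adjusted p = 0.167).

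At the start of NDRG1, in the 551 bp from 50 bases before to 500 bases after the start site, where paused polymerase accumulates, the change was smaller than along the gene body. The region held 1094 and 1554 reads in normoxic and 2468 and 6580 reads in hypoxic WT cells, and 633 and 1932 in normoxic and 870 and 2289 in hypoxic HIF1A-/- cells. As CPM, the hypoxic WT libraries lay above the normoxic ones (519 and 1103 against 247 and 408), as did 15.3% of the TSS regions tested, whereas the HIF1A-/- libraries overlapped between hypoxia (289 and 535) and normoxia (227 and 451). The WT log2 fold change was 1.35 (SE 0.4, adjusted p = 0.922), so that no member was called at its start, as against 0.046% of the 15212 TSS regions tested. With the replicate block it was 1.29 (SE 0.128, adjusted p = 8.85e-07), and NDRG1 was the only member called, among 1.01% of regions. Without WT hypoxia replicate 2 the edgeR value without the block was 0.68, and over all libraries left out in turn it ran to 1.80.

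The start of NDRG1 changed by 0.28 in HIF1A-/- cells (SE 0.397, adjusted p = 1). No region was called there by edgeR (0.0%) or DESeq2, and 135 had an unadjusted p under 0.05. The difference of the 2 responses was 1.07 (SE 0.56, adjusted p = 1; 0.00657% called), and with the replicate block 1.00 (SE 0.18, adjusted p = 0.0209; 0.046% called, NDRG1 the only member). Between lines, the start differed by 0.07 in normoxia (SE 0.397, adjusted p = 0.976; 0.657% called, no member) and by -0.999 in hypoxia (SE 0.397, adjusted p = 0.302; 1.1% called, no member). Under the replicate block the hypoxic difference was -0.97 (SE 0.127, adjusted p = 1.34e-05), where NDRG1 was the only member among 14.4% of regions called.

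The pausing index is the density at the start over that along the body. Each density is scaled to the total reads of its own kind of region. The index therefore compares libraries, and its level is not a ratio of reads per base. The index fell for NDRG1 in hypoxic WT cells. It was 485 and 549 in normoxic WT libraries and 163 and 148 in hypoxic ones, against 522 and 538 in normoxic and 461 and 495 in hypoxic HIF1A-/- libraries. Hypoxic WT cells thus stood apart from the other groups, a separation whose share over all genes was not counted. Their replicates, which differed 2.34-fold in gene body density, differed little in this ratio. How close the HIF1A-/- replicates lie depends on the scaling. Replicate 1 had 2783581 TSS reads in normoxia and 3011758 in hypoxia, against 4288308 and 4276956 in replicate 2. The fall in WT cells was 1.67 on the log2 scale (log2 fold change -1.67, SE 0.233, edgeR adjusted p = 0.00292), and NDRG1 was the only one of the 3 members tested to be called, among 0.193% of the 14494 genes tested, where 27 of the 28 called fell. NDRG1 ranked 9 by p.

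The index of NDRG1 changed by -0.12 in HIF1A-/- cells (SE 0.234, adjusted p = 1), where no index was called (0.0%, with 229 at an unadjusted p under 0.05). The difference of the 2 responses was -1.56 (SE 0.329, adjusted p = 0.288; 0.0207% called, no member), and was called with the replicate block (-1.56, SE 0.253, adjusted p = 0.0116; 0.145% called, NDRG1 the only member). In normoxia the lines differed by 0.06 (SE 0.234, adjusted p = 0.984), with no member among 0.0759% of genes called. In hypoxia, a comparison added after the other results were known, the index of NDRG1 was higher in HIF1A-/- cells by 1.61 (SE 0.233, adjusted p = 0.00324), and NDRG1 was the only member among 0.718% of genes called.

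**Figure D3:**
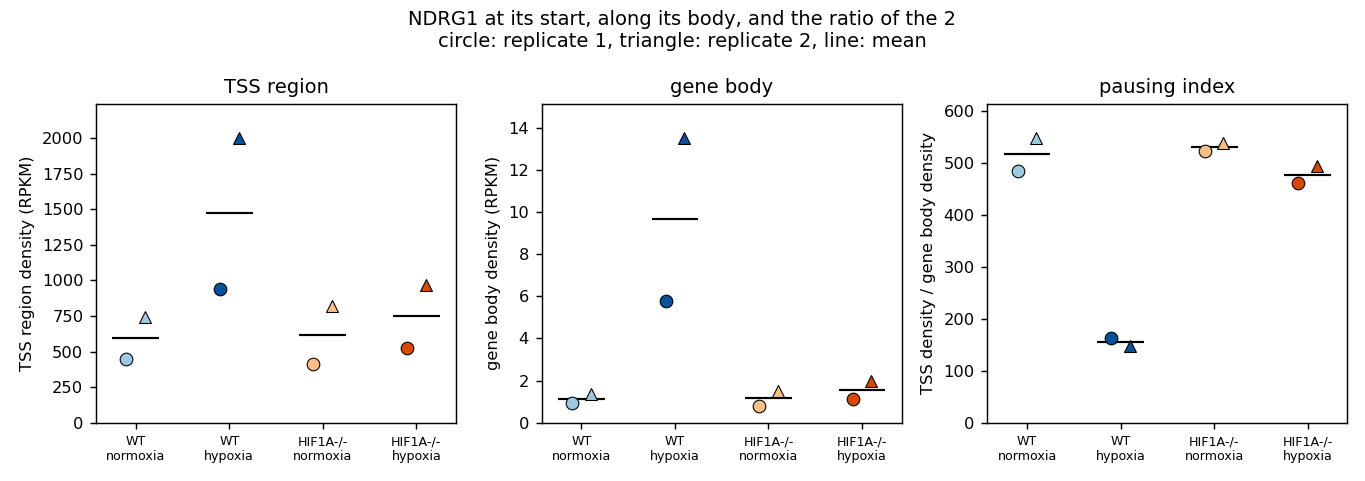
NDRG1 density in the TSS region (left, RPKM) and the gene body (middle, RPKM), and their ratio, the pausing index (right), in the 8 libraries by group, with circles for replicate 1, triangles for replicate 2 and a line at the mean. Hypoxic WT libraries are highest in the body, at 5.78 and 13.5 RPKM, and lowest in the ratio, at 163 and 148, while the other 6 libraries lie between 461 and 549.

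The region counted as the NDRG1 gene body spans chr8:134249413-134308546 on the minus strand (59.1 kb), of which 18.0% is exonic and 82.0% intronic in the GENCODE annotation lifted to GRCh37. The start used lies 48 bases from the nearest annotated one. Of 47 annotated NDRG1 start sites, 34 fall inside the counted gene body, so initiation at internal starts and elongation from the first cannot be told apart in the body count. For NDRG2 this holds for 62 of 63 start sites, for NDRG3 for 2 of 5 and for NDRG4 for 12 of 40.

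NDRG3 was lower in hypoxia in both lines, without reaching a call. Its gene body, at chr20:35280168-35373540 (93.4 kb, 96.6% intronic), held 1973 and 1343 reads in normoxic WT libraries and 1266 and 1216 in hypoxic ones, or 95.3 and 74.1 CPM against 66.7 and 51.5 CPM. In HIF1A-/- cells NDRG3 held 1730 and 1868 reads in normoxia and 1106 and 1357 in hypoxia, or 78.6 and 88.4 CPM against 54.4 and 66.9 CPM. Both hypoxic libraries lay below both normoxic ones in each line, as did 17.3% of gene bodies in WT cells, 9.15% in HIF1A-/- cells and 3.4% in both lines. The 4 ratios within a replicate number were alike, at 0.699 and 0.695 in WT and 0.692 and 0.758 in HIF1A-/- cells.

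The NDRG3 gene body had a log2 fold change of -0.55 in WT cells (SE 0.191, unadjusted p = 0.0203, edgeR adjusted p = 0.897) and -0.50 in HIF1A-/- cells (SE 0.191, unadjusted p = 0.0299, adjusted p = 1). The difference of the 2 responses was -0.05 (SE 0.269, adjusted p = 1). The lines differed by -0.03 in normoxia (SE 0.19) and by 0.02 in hypoxia (SE 0.191), well within the error of either. DESeq2 with the replicate block did call the WT decrease (-0.54, adjusted p = 0.0433), and edgeR with the replicate block did not (-0.55, adjusted p = 0.111).

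At the start of NDRG3 the counts were low. There were 106 and 88 reads in normoxic and 82 and 113 in hypoxic WT libraries, and 72 and 105 in normoxic and 81 and 94 in hypoxic HIF1A-/- libraries. As CPM, hypoxic WT libraries (17.3 and 18.9) lay below normoxic ones (23.9 and 23.1), as did 19.5% of TSS regions, with a log2 fold change of -0.34 (SE 0.264, adjusted p = 0.922), and the HIF1A-/- libraries overlapped (-0.05, SE 0.267, adjusted p = 1). The pausing index of NDRG3 was 47.6 ± 7.28 in normoxic WT, 53.1 ± 13.1 in hypoxic WT, 51.4 ± 6.21 in normoxic HIF1A-/- and 69.7 ± 19.9 in hypoxic HIF1A-/- cells (SD, n = 2). Its log2 changes with hypoxia, 0.22 in WT (SE 0.278) and 0.45 in HIF1A-/- cells (SE 0.281), did not pass the test.

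NDRG2 had the lowest read density of the members over its counted gene body and showed no detectable change. Its gene body, at chr14:21484921-21538030 (53.1 kb, 85.9% intronic), held 317 and 324 reads in normoxic and 336 and 419 in hypoxic WT libraries, equal to 0.288 and 0.337 RPKM against 0.333 and 0.334 RPKM. HIF1A-/- cells had 247 and 392 reads in normoxia and 283 and 443 in hypoxia, equal to 0.211 and 0.349 RPKM against 0.262 and 0.412 RPKM, and the groups overlapped in both lines. The log2 fold changes were 0.07 in WT (SE 0.263, adjusted p = 0.961) and 0.23 in HIF1A-/- cells (SE 0.263, adjusted p = 1), and their difference was -0.16 (SE 0.372, adjusted p = 1).

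The start site counted for NDRG2 was nearly silent, with 1 to 5 reads in each of the 8 libraries, at or near a floor of 3 counts, so no fold change or pausing index is given. It is the most distal annotated start, and the other 62 lie inside the counted gene body. That gene body also encloses small genes, of which RNASE13 on the same strand and TPPP2 on the opposite strand had no read assigned and RNASE7 had 0 to 1. At its start NDRG2 overlaps ARHGEF40 on the opposite strand, although the counted gene bodies of these genes do not overlap. How reads in a stretch shared by 2 genes were assigned is not given in the sources used here.

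NDRG4 showed no change beyond the spread of its replicates. Its gene body, at chr16:58535047-58547523 (12.5 kb, 51.6% intronic), held 123 and 178 reads in normoxic and 153 and 172 in hypoxic WT libraries, and 133 and 205 in normoxic and 118 and 271 in hypoxic HIF1A-/- libraries. As RPKM these were 0.476 and 0.787 against 0.646 and 0.584 in WT, and 0.485 and 0.777 against 0.465 and 1.07 in HIF1A-/- cells, so that in each line the range of one condition lay inside that of the other. The log2 fold changes were -0.06 in WT (SE 0.409, adjusted p = 0.976) and 0.24 in HIF1A-/- cells (SE 0.406, adjusted p = 1), with a difference of -0.30 (SE 0.577, adjusted p = 1).

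Unlike NDRG2, NDRG4 had polymerase at its counted start. The region held 220 and 271 reads in normoxic and 268 and 379 in hypoxic WT libraries, and 81 and 285 in normoxic and 115 and 287 in hypoxic HIF1A-/- libraries. In HIF1A-/- cells replicate 2 exceeded replicate 1 as CPM by 2.28-fold in normoxia and 1.76-fold in hypoxia. The log2 fold changes were 0.02 in WT (SE 0.346) and 0.13 in HIF1A-/- cells (SE 0.356), and the pausing index, 176 ± 17.8 in normoxic WT, 178 ± 27.7 in hypoxic WT, 132 ± 32.7 in normoxic HIF1A-/- and 131 ± 25.0 in hypoxic HIF1A-/- cells (SD, n = 2), did not change detectably with hypoxia. Between the lines the index differed by -0.38 on the log2 scale in normoxia (SE 0.296, adjusted p = 0.877).

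Ordered by gene body RPKM in normoxic WT cells, NDRG1 (1.14 ± 0.301) came first, followed by NDRG3 (0.907 ± 0.161), NDRG4 (0.632 ± 0.220) and NDRG2 (0.313 ± 0.0341; SD, n = 2). The libraries of NDRG1 and NDRG3 overlapped, those of NDRG3 and NDRG4 were adjacent (lowest 0.794, highest 0.787), and NDRG2 lay below the rest. The NDRG2 region is counted from a nearly silent distal start, so its density and rank depend on that choice of start. These levels placed the genes at the 46.3, 40.6, 33.2 and 23.9 percentile of the tested gene bodies. In hypoxic WT cells NDRG1 reached the 95.9 percentile, NDRG3 (0.633 ± 0.115 RPKM) and NDRG4 (0.615 ± 0.0439 RPKM) overlapped, and NDRG2 (0.334 ± 0.000624 RPKM) stayed lowest. In hypoxic HIF1A-/- cells NDRG1 (1.55 ± 0.585 RPKM) was at the 55.2 percentile, and NDRG4 (0.768 ± 0.429 RPKM) and NDRG3 (0.650 ± 0.0950 RPKM) overlapped.

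The make-up of the family's reads changed accordingly. NDRG1 supplied 31.9% and 43.9% of the reads of the 4 gene bodies in normoxic WT libraries, and 78.7% and 91.3% in hypoxic ones. In HIF1A-/- libraries it supplied 32.8% and 43.5% in normoxia and 47.6% and 53.2% in hypoxia. The summed density of the 4 gene bodies was 171 and 182 CPM in normoxic WT, 434 and 875 CPM in hypoxic WT, 143 and 207 CPM in normoxic HIF1A-/- and 141 and 218 CPM in hypoxic HIF1A-/- libraries. The HIF1A-/- sums overlapped while the WT sums did not. Of single gene bodies tested, 19.8% separated upward in this way in WT cells. Since NDRG1 supplied most reads of the hypoxic WT sums, their rise is not a separate result about the family.

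**Figure D4:**
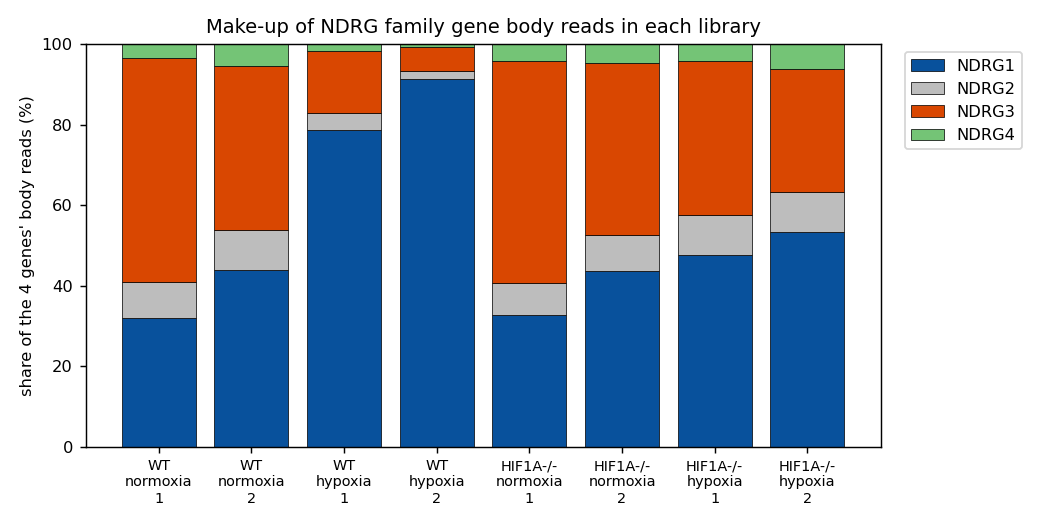
Share of the gene body reads of NDRG1, NDRG2, NDRG3 and NDRG4 together that each gene supplied (percent, stacked to 100), with 1 bar per library and libraries ordered by group and replicate. NDRG1 takes 78.7% and 91.3% in hypoxic WT libraries and 31.9% to 53.2% in the other 6.

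Across the 8 libraries, the gene bodies whose log2 CPM followed NDRG1 most closely among the 16686 tested were CAND1.11 (Pearson r = 0.994), BNIP3L, which encodes a mitophagy receptor (r = 0.992), and TMEM242 (r = 0.989). BNIP3L had a WT log2 fold change of 3.09 (SE 0.509, adjusted p = 0.0847) against 0.32 in HIF1A-/- cells, and CAND1.11 1.11 (SE 0.203, adjusted p = 0.119) against 0.23. TMEM242 changed by 0.25 (SE 0.119, adjusted p = 0.897), so that its likeness to NDRG1 was one of pattern and not of size. The genes most like NDRG3 were EXT2 (r = 0.990), SUSD6 (r = 0.979) and NCK2 (r = 0.972), with WT log2 fold changes of -0.34, -0.44 and -0.30, none of them called.

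Closest to NDRG2 were STK33 (r = 0.994), PIK3CD (r = 0.991) and SCUBE1 (r = 0.979), and closest to NDRG4 were GPRIN2 (r = 0.977), SCNN1D (r = 0.967) and TUBG2 (r = 0.956). Their WT log2 fold changes ran from 0.01 to 0.11. Among the members themselves, r was 0.81 between NDRG2 and NDRG4, -0.66 between NDRG1 and NDRG3 and 0.44 between NDRG1 and NDRG2. These coefficients are descriptions over 8 libraries that share 2 replicate numbers and 4 groups, and the closest genes were picked from all those tested.

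The genes beside the members did not pass the test in either line. WISP1, 5.48 kb beyond the end of NDRG1 on the opposite strand, changed by 0.49 on the log2 scale in WT cells (SE 0.471, adjusted p = 0.897) at 23 to 144 reads, and ST3GAL1, 158 kb upstream on the same strand, 0.12 (SE 0.169, adjusted p = 0.903). SLA2, 5.50 kb beyond the end of NDRG3 on the same strand, had -0.53 in WT (SE 0.296, adjusted p = 0.897) and -0.74 in HIF1A-/- cells (SE 0.295, adjusted p = 1), values close to those of NDRG3, whereas DSN1, 5.60 kb upstream, had -0.06 and -0.01. Next to NDRG2, ARHGEF40, ZNF219 and SLC39A2 had WT log2 fold changes of -0.24, -0.06 and 0.45, and next to NDRG4, GINS3 and SETD6 had -0.25 and 0.01.

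A list of 33 genes linked to NDRG biology was followed in the same fit: kinases of NDRG proteins, the MYC network, oxygen sensing, lactate handling, binding partners and other regulators of NDRG1. Of these, 30 gene bodies were tested, and the others, SGK3, MYCN and EGLN2, had no gene body read in any library. In WT cells 3 rose and none fell, against 0.431% of all gene bodies called, and the median log2 fold change was 0.06 against -0.02 over all tested. Those that rose were LDHA, which makes lactate (log2 fold change 1.66, SE 0.155, adjusted p = 0.00761), and the prolyl hydroxylase genes EGLN3 (2.17, SE 0.275, adjusted p = 0.0314) and EGLN1 (1.38, SE 0.154, adjusted p = 0.0196). None of the 30 was called in HIF1A-/- cells by edgeR or DESeq2 (1 had an unadjusted p under 0.05), and these genes had log2 fold changes of 0.05, 0.15 and 0.04 there. The count in WT cells fell to 0 without WT normoxia replicate 1, to 0 without WT normoxia replicate 2 and to 1 without WT hypoxia replicate 2.

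The gene body of EGLN1, whose product hydroxylates NDRG3, had 139 and 118 CPM in normoxic WT libraries and 304 and 382 CPM in hypoxic ones, against 104 and 102 and then 108 and 110 CPM in HIF1A-/- cells. LDHA had 158 and 156 CPM in normoxic and 474 and 541 CPM in hypoxic WT libraries, against 168 and 148 and then 178 and 158 CPM in HIF1A-/- cells. For both genes the hypoxic WT libraries lay above the normoxic ones, as was the case for 19.8% of all gene bodies tested. The HIF1A-/- groups overlapped for LDHA. For EGLN1 both hypoxic HIF1A-/- libraries lay slightly above both normoxic ones, a separation whose share over all gene bodies was not counted. With the replicate block, 5 list genes rose and 1 fell in WT cells, against 5.51% of all gene bodies called (623 higher, 296 lower), adding MXI1, an antagonist of MYC (1.24, adjusted p = 0.000669), the lactate exporter SLC16A3 (0.50, adjusted p = 0.03) and, among those that fell, the kinase GSK3A (-0.52, adjusted p = 0.0738), all 3 named after their values were seen.

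SGK1, which phosphorylates NDRG1, had 39.0 and 39.1 CPM in normoxic and 49.4 and 61.3 CPM in hypoxic WT libraries. The groups did not overlap, a separation upward that 19.8% of all gene bodies tested showed. The log2 fold change of SGK1, 0.47 (SE 0.348, adjusted p = 0.897), did not pass the test. MYC had 134 and 228 CPM in normoxic and 129 and 148 CPM in hypoxic WT libraries, with a log2 fold change of -0.41 (SE 0.404, adjusted p = 0.897). MYCN, for which the family is named, had no read in its gene body in any of the 8 libraries, and its TSS region did not pass the filter. The gene bodies of SGK3 and EGLN2 were also without reads, although their TSS regions were tested. An empty gene body therefore does not by itself show that a gene is silent. At 1% O2, 4 of the 30 list genes were lower in HIF1A-/- than in WT cells and none higher, against 4.26% of all gene bodies called in either direction. These were LDHA, EGLN1, EGLN3 and MXI1, with log2 differences from -2.18 to -1.32.

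**Figure D5:**
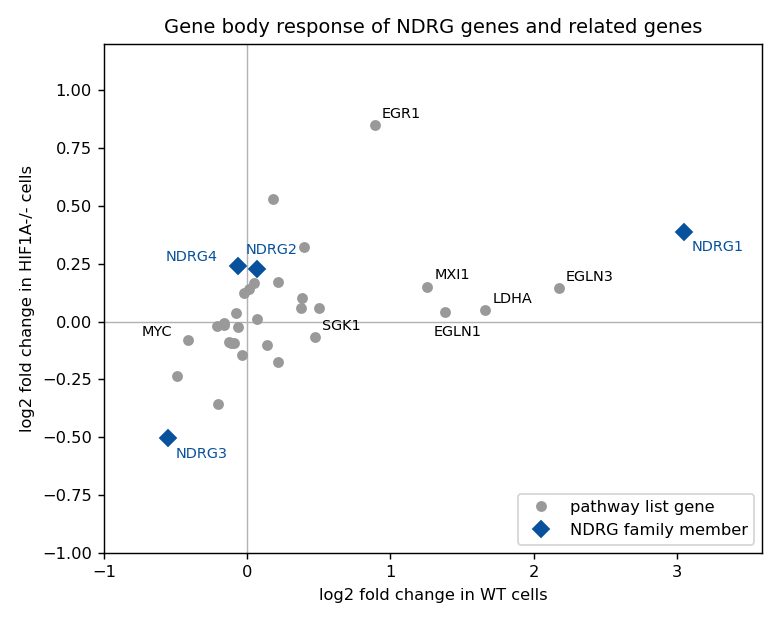
Gene body log2 fold change with hypoxia in WT cells (horizontal axis) against HIF1A-/- cells (vertical axis) for the 30 tested list genes (grey circles) and the 4 NDRG genes (blue diamonds), with lines at 0. NDRG1 lies far to the right at 3.05 and 0.39, beyond EGLN3 at 2.17 and 0.15, while NDRG3 is below 0 on both axes at -0.55 and -0.50.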

How the data were processed

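PRO-seq libraries of the 8 cultures were deposited by the authors as 2 tables of raw read counts per gene, for the TSS region (50 bases before to 500 bases after the start site) and for the gene body (from base 1001 to the gene's end), with the length of each region in bp. Per the study's methods and the submitters' notes, reads of 2 sequencing runs were merged, trimmed, aligned to GRCh37 without splicing (HISAT2 2.1.0), filtered at a mapping quality above 10 (SAMtools 1.5) and counted with featureCounts (Subread 1.6.2), and 1 start site, the most active, and the shortest gene body were kept per gene. How reads in stretches shared by several genes were assigned is not given in the sources used here.

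Counts were tested in R 4.3.3 with edgeR 4.0.16 (quasi-likelihood, TMM) on all genes with a CPM above 0.5 in at least 2 libraries, in 1 fit over 4 groups, with Benjamini-Hochberg adjustment over all genes tested and calls at an FDR of 10%. The study used DESeq2 (here version 1.42.0), which is an alternative. For the pausing index, TSS and gene body counts entered 1 edgeR fit with a term per library. Every adjusted p in the text is from edgeR unless DESeq2 is named. No p is given for the members as a set. The tests were first run on simulated counts.

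Same-numbered libraries deviated together in all 6 pairs of groups (r from 0.484 to 0.79 over gene bodies, from 0.216 to 0.519 over TSS regions), so the replicate block, edgeR with the replicate number as a term, is given where it changes a call. Other alternatives were DESeq2 with and without the block, library totals in place of TMM, no filter, a stricter filter (CPM above 1 in all libraries of a group), only the 4 libraries compared, and leaving out each library. Correlations used log2 CPM with a prior count of 2. Upstream windows and annotation came from GRCh37 and GENCODE lifted to it; the RefSeq promoter table was not used, since it holds no NDRG1 or NDRG3 entry. Depth was 18125234 to 23622392 gene body reads and 2783581 to 5966348 TSS reads per library.

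The members and lists were chosen with earlier results of these data known. The text names the 4 members, HIF1A, the list genes called for the hypoxia response (at most 8), MYC, MYCN, SGK1 and EGLN1, the 3 gene bodies most like each member, and the neighbouring genes.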

Additional observations from a re-analysis of the deposited data

Results flagged for a closer look

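In all 3 readouts the response of NDRG1 to hypoxia differed between the lines when the replicate number was a term of the edgeR fit. The gene body response was larger in WT than in HIF1A-/- cells by 2.56 on the log2 scale (adjusted p = 0.00287), and the response of the TSS region by 1.00 (adjusted p = 0.0209). The change of the pausing index differed by -1.56 (adjusted p = 0.0116), a larger fall in WT cells. Without that term the filtered edgeR fit called none of the 3 differences, while DESeq2 called the gene body difference (2.68, adjusted p = 0.00176) and edgeR without a low-count filter called that of the TSS region (1.07, adjusted p = 0.00384). Both replicate numbers gave the same direction, with gene body ratios of hypoxia over normoxia of 6.26 and 10.0 in WT against 1.44 and 1.29 in HIF1A-/- cells. With 2 libraries per group, no single library could be tested as standing apart from its group.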

How the results depend on the processing

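Of 668 values of the members under the alternatives, 576 kept their direction and their side of the 10% FDR, 5 lost a call, 15 gained one and 72 changed sign. No value that was called changed sign. The cause was not tested, except that the fits with a library left out hold fewer libraries. The fall of the NDRG1 pausing index in WT cells was called in all 8 fits that left out 1 library, from -1.78 to -1.56, as was its hypoxic difference between lines, from 1.52 to 1.70. Depth limits most the NDRG2 start, with at most 5 reads, then the NDRG3 start, with 72 to 113, the NDRG4 start, with 81 to 379, and the NDRG4 gene body, with 118 to 271.

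The replicate block called the difference of the NDRG1 responses in the gene body (2.56), at the TSS region (1.00) and in the pausing index (-1.56), the WT response of the TSS region (1.29), and the hypoxic difference between lines at the TSS region (-0.97), and it changed no other call of a member. DESeq2 called the difference of the NDRG1 gene body responses (2.68), and with the replicate block it called that difference (2.57), the NDRG1 TSS region in WT cells (1.28), the difference of its responses (1.00), its hypoxic difference between lines (-0.97) and the WT fall of the NDRG3 gene body (-0.54). Without a low-count filter the same 3 NDRG1 values at the TSS region were called, at 1.34 in WT cells and 1.07 for the difference of responses, while the density of the region fell by 1.00 from WT to HIF1A-/- cells in hypoxia, and that difference was also called when only the 4 libraries compared were fitted, where it fell by 1.00.

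With all 8 libraries or the 4 compared, signs turned only at values near 0. The normoxic difference between lines of the NDRG1 gene body was -0.03 with the replicate block and -0.02 by DESeq2 with it, and that of NDRG4 was 0.01 by DESeq2, 0.02 without a filter, 0.02 by DESeq2 with the block and 0.00 with only the 4 libraries. The hypoxic difference of the NDRG2 gene body was 0.00 by DESeq2 and 0.01 with library totals, without a filter and with only the 4 libraries. The WT response of the NDRG4 gene body was 0.01 by DESeq2 with the block, and that of its TSS region -0.01 with library totals.

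Leaving out 1 library at a time gave these log2 ranges. In the gene body, the WT response ranged from 2.34 to 3.54 for NDRG1, -0.03 to 0.16 for NDRG2 and -0.37 to 0.32 for NDRG4. The HIF1A-/- response ranged from -0.01 to 0.88 for NDRG1, -0.08 to 0.59 for NDRG2 and -0.43 to 0.70 for NDRG4. The difference of the responses ranged from 1.95 (without WT hypoxia replicate 2) to 3.15 (without WT hypoxia replicate 1) for NDRG1, -0.51 to 0.17 for NDRG2, -0.26 to 0.17 for NDRG3 and -0.75 to 0.38 for NDRG4. The normoxic difference between lines ranged from -0.45 to 0.41 for NDRG1, -0.50 to 0.14 for NDRG2, -0.20 to 0.19 for NDRG3 and -0.31 to 0.39 for NDRG4. The hypoxic difference between lines ranged from -3.11 to -1.94 for NDRG1, -0.33 to 0.25 for NDRG2, -0.17 to 0.26 for NDRG3 and -0.38 to 0.75 for NDRG4. At the TSS region, the WT response ranged from 0.68 (without WT hypoxia replicate 2) to 1.80 (without WT hypoxia replicate 1) for NDRG1 and -0.21 to 0.31 for NDRG4. The HIF1A-/- response ranged from -0.24 to 0.85 for NDRG1, -0.20 to 0.09 for NDRG3 and -0.35 to 0.85 for NDRG4. The difference of the responses ranged from 0.40 (without WT hypoxia replicate 2) to 1.58 (without HIF1A-/- hypoxia replicate 2) for NDRG1 and -0.83 to 0.37 for NDRG4. The normoxic difference between lines ranged from -0.50 to 0.49 for NDRG1 and -1.02 to 0.15 for NDRG4. The hypoxic difference between lines ranged from -1.52 (without HIF1A-/- hypoxia replicate 2) to -0.34 (without WT hypoxia replicate 2) for NDRG1 and -0.68 to 0.14 for NDRG4. For the pausing index, the WT response ranged from -0.08 to 0.49 for NDRG3 and -0.12 to 0.25 for NDRG4. The HIF1A-/- response ranged from -0.27 to 0.30 for NDRG4. The difference of the responses ranged from -0.53 to 0.04 for NDRG3 and -0.24 to 0.34 for NDRG4. The normoxic difference between lines ranged from -0.06 to 0.16 for NDRG1 and -0.06 to 0.29 for NDRG3.

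For all gene bodies, the calls in WT cells, HIF1A-/- cells, the difference of responses, normoxia and hypoxia were 72, 0, 9, 297 and 711 by edgeR, 175, 8, 68, 630 and 1311 by DESeq2, 919, 6, 64, 1722 and 4706 with the replicate block, and 1028, 162, 122, 1569 and 3867 by DESeq2 with the block, and without a filter the difference of responses gave 17. For TSS regions they were 7, 0, 1, 100 and 168 by edgeR, 15, 0, 3, 137 and 312 by DESeq2, 63, 2, 8, 406 and 1063 without a filter, 153, 1, 7, 652 and 2196 with the replicate block, and 64, 1, 6, 295 and 1083 by DESeq2 with the block. With only the 4 libraries compared, 52 and 853 regions were called between lines in normoxia and hypoxia. Pausing index calls went from 28 to 70 in WT cells, from 3 to 21 for the difference of responses, from 11 to 99 in normoxia and from 104 to 949 in hypoxia with the replicate block. Leave-one-out counts ran from 0 to 89, 0 to 10, 75 to 269 and 165 to 863 for gene bodies and from 1 to 12, 0 to 2, 30 to 513 and 33 to 643 for TSS regions, in WT cells, for the difference of responses, in normoxia and in hypoxia.

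Of the 30 list genes, 3 were called in WT cells, against 6 with the replicate block, 7 by DESeq2 with the block and 0 to 4 when 1 library was left out. For the difference of responses 0 were called, against 3 by DESeq2, 1 with library totals, 1 without a filter, and 4 with the block in edgeR and in DESeq2. In normoxia 1 was called with the block by either tool, against 0, and in hypoxia 10 and 9, against 4. With the block in edgeR the normoxic gene was EPAS1, lower in HIF1A-/- cells (log2 difference -0.80, adjusted p = 0.0242), where 10.3% of all gene bodies were called. In hypoxia 8 were lower and 2 higher, where 28.2% of all gene bodies were called. EPAS1 was among those lower (-1.01, adjusted p = 0.00496), and is named here after its values were seen.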

Other observations

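The TSS regions of the NDRG-linked list were described less fully than the gene bodies. Of the 33 genes, 30 had a tested TSS region, and none was called for the hypoxia response of either line or for the difference of the responses by edgeR (1, 0 and 0 had an unadjusted p under 0.05). Between the lines in hypoxia, 2 were higher in HIF1A-/- cells and none lower, against 1.1% of all TSS regions called (67 higher, 101 lower). These were the prolyl hydroxylase gene EGLN2 (log2 difference 1.27, adjusted p = 0.0849) and the immediate-early gene EGR1 (1.35, adjusted p = 0.0592), a transcription factor gene whose gene body had log2 fold changes of 0.89 in WT and 0.85 in HIF1A-/- cells, neither called. EGLN2 and EGR1 are named here after their values were seen.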
